A study of Mus musculus with 4 samples.

Results

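The mitochondrial carrier family was followed between E7.5 and E8.5 in posterior epiblast dissected from wild type mice, to ask how the region that holds the axial progenitors differs once the trunk has begun to form. Its members were taken as the genes whose symbol is Slc25a followed by a number, which gave 47 of the 53397 genes in the table of normalized counts. Both stages were wild type (WT) and carried no transgene or treatment, and each had 2 libraries, each made with SMART-Seq2 from its own pool of dissected tissue. How many embryos went into a pool is not given, and a library averages over them.

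Mitochondrial carriers are proteins of the inner mitochondrial membrane that exchange metabolites between the cytosol and the mitochondrial matrix. The inner membrane lets few solutes through by itself, so ADP, phosphate, citrate, amino acids, iron and cofactors each need a carrier. The proteins are made in the cytosol and inserted by a dedicated import route, and a few members sit instead in the outer mitochondrial membrane or in peroxisomes. Many substrates are served by paralogs that differ between tissues, such as an erythroid and a general form of the iron carrier mitoferrin.

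The libraries held between 18488218 and 19493342 reads assigned to genes, of which 45445 to 54209 fell on the family. Values are normalized counts, reads scaled by each library's own factor, and 1 read is worth 0.0507 to 0.0562 of a normalized count. CT010467, the most abundant gene, accounted for 25.6% of E7.5 replicate 1 and for 18.5% to 18.9% of the other libraries. Of 10 listed markers of the posterior epiblast and primitive streak, T (Brachyury) was not found under that symbol. The other 9 were all detected, and most moved between the stages. Of these, 6 fell and 2 rose, with a median log2 fold change of -0.72, and their summed value was 1281 and 1298 at E7.5, then 778 and 739 at E8.5. Fst fell by 4.35, Cdx1 by 1.63 and Epha1 by 1.37 on the log2 scale, Fgf8 rose by 1.32, and Cdx2 was the marker with no call (0.099, adjusted p = 0.218). Markers of other cells moved as well. The summed value of 10 visceral endoderm markers, genes of the layer around the epiblast, was 2623 and 2707 at E7.5, then 326 and 335 at E8.5, and all 10 fell. The summed value of 8 primitive erythroid markers was 3.50 and 4.55 at E7.5, then 410 and 415 at E8.5, with the globins Hba-x and Hbb-y at 0 in both E7.5 libraries, and the 7 tested rose. In bulk tissue, fewer cells of a type and less RNA per cell cannot be told apart, and the part of any of these markers' cells in the changes of the carriers was not tested.

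Of the 47 carrier genes, 39 reached a value of 1 in 2 or more libraries and were tested, and 8 were not. Stages were compared with limma on log2(value + 1), with rises and falls called at a Benjamini-Hochberg adjusted p under 0.05 over all 13903 genes tested. The fold changes are on that log2 scale, E8.5 against E7.5, and understate the change of genes with low values. In all, 9 carriers rose and 12 fell, 53.8% of those tested, against 52% of all genes. By direction, 23.1% rose against 25.6% of all genes, and 30.8% fell against 26.4%. The median log2 fold change of the 39 was -0.11, against -0.0074 for all genes tested. Carriers were thus called about as often as other genes. The number of rises was 4 without E8.5 replicate 1, and with no filter on low values 5 carriers rose and 6 fell. Their changes were small: 31 of the 39 lay under 0.5 in absolute log2 fold change, and 1 (2.56%), Slc25a12, passed the test with a change of at least 1, against 10.8% of all genes (4.48% higher and 6.35% lower). With edgeR on the recovered reads, which adds no pseudocount of this size, 3 passed with a change of at least 1, Slc25a12, Slc25a31 and Slc25a42, against 16.5% of all genes. Of these, Slc25a31 reached the minimum value at E7.5 alone, which favoured a fall. Both E8.5 values lay above both E7.5 values for 13 members (33.3%, against 37.2% of all genes) and below them for 18 (46.2%, against 39.1%), and the stages overlapped for 8. For a single gene, an exact permutation test of 2 libraries against 2 reaches p = 0.333 at best, and limma's calls therefore borrow the spread of other genes. The libraries of a stage are separate pools, and the p-values measure the spread between pools.

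**Figure D1:**
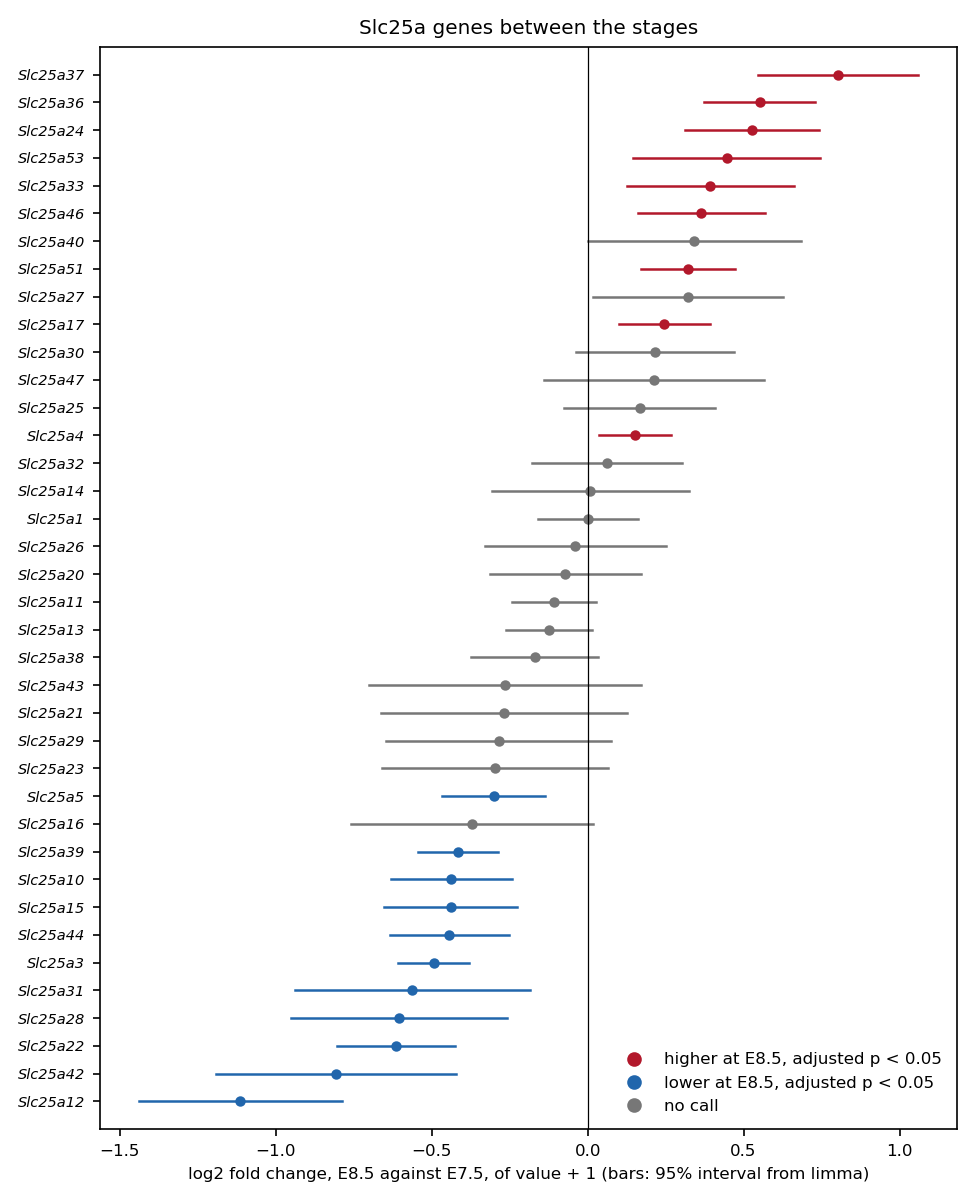
Log2 fold change of value + 1, E8.5 against E7.5, for 38 of the carriers tested, 1 per row, with 95% intervals from limma as bars. Red marks 9 that rose, blue 11 that fell and grey 18 with no call; the values run from -1.11 for Slc25a12 to 0.80 for Slc25a37.

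Most of the carrier RNA came from the carriers of ATP synthesis. Slc25a3, Slc25a5 and Slc25a4 together held 56.0% and 56.8% of the family's value at E7.5, then 51.5% and 52.3% at E8.5. The summed value of these 3 genes was 1501 ± 86.4 at E7.5, then 1243 ± 1.25 at E8.5 (SD, n = 2 libraries each), while that of the other 44 members was 1160 ± 38.5 and 1150 ± 27.7. The total of the family was 2661 ± 125 at E7.5, then 2393 ± 29.0, so most of its difference lay in these 3 genes. As a share of each library's total value, the family overlapped between the stages, with 0.239% and 0.278% at E7.5, then 0.249% and 0.245%. With CT010467 left out of the total, it did not overlap, with 0.322% and 0.343%, then 0.306% and 0.301%. Per kb of exon, with the exons of all annotated transcripts of a gene merged, Slc25a5 was the most abundant. It had 245 and 303 at E7.5, then 219 and 222 at E8.5. Slc25a4 followed with 139 and 143 at E7.5, then 156 and 158 at E8.5, then Slc25a3 with 128 and 131 at E7.5, then 93.0 and 90.8 at E8.5. On this measure these 3 did not overlap with each other at either stage. Slc25a39 came next at 63.3 and 60.7, then 46.6 and 46.2, above Slc25a11 at 51.0 and 49.2 at E7.5 but overlapping with its 46.1 and 46.7 at E8.5. Slc25a13 followed at 32.7 and 31.9, then 30.8 and 28.4. Means over the 4 libraries among the 39 tested ranged from 0.305 per kb for Slc25a21 to 247 per kb for Slc25a5. The merged length can exceed that of the RNA made, so the order between genes depends on it. Not divided by length, Slc25a3 was the highest, with a mean of 614 over the 4 libraries, against 407 for Slc25a5 and 351 for Slc25a4.

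**Figure D2:**
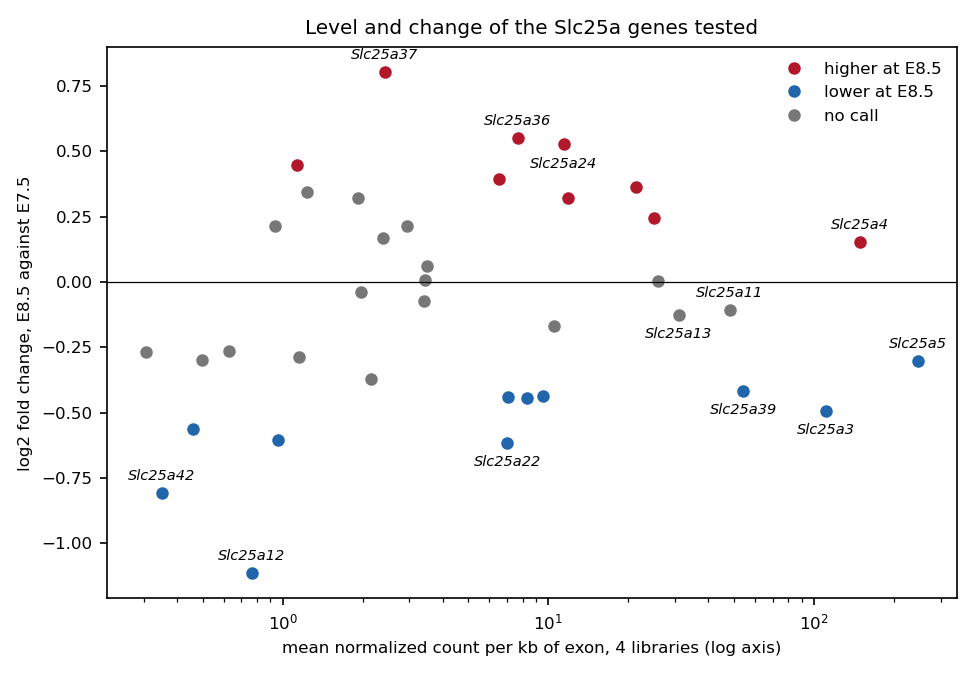
Mean normalized count per kb of exon over the 4 libraries (log axis) against the log2 fold change of value + 1, E8.5 against E7.5, 1 point for each of the same 38 carriers. Of the 4 carriers above 50 per kb, Slc25a5, Slc25a3 and Slc25a39 fell and Slc25a4 rose, and Slc25a12 and Slc25a42, with the largest falls, lie below 1 per kb.

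Slc25a3 encodes the phosphate carrier, which brings in the phosphate that ATP synthase joins to ADP. Its normalized count was 710 and 726 in the E7.5 libraries and 516 and 504 in the E8.5 libraries. Both E8.5 values lay well below both E7.5 values, and the log2 fold change was -0.49 (standard error 0.054, adjusted p = 2.2e-06 from limma). The adenine nucleotide carriers, which exchange ADP for ATP, went different ways. Slc25a5, the form typical of dividing cells, had values of 403 and 498 at E7.5, then 361 and 366 at E8.5 and fell by 0.30 in log2 units (standard error 0.078, adjusted p = 0.00437). Its E7.5 libraries stood far apart, and E8.5 lay below both. Slc25a4, the form typical of heart and muscle, had values of 327 and 337 at E7.5, then 366 and 372 at E8.5 and rose by 0.15 (standard error 0.054, adjusted p = 0.0289). Its call was lost without E8.5 replicate 1 (0.16, adjusted p = 0.185) or without E8.5 replicate 2 (0.14, adjusted p = 0.256), and that of Slc25a5 without E8.5 replicate 1 (-0.29, adjusted p = 0.0592). The size of the fall of Slc25a5 rested on the E7.5 libraries, being -0.45 without E7.5 replicate 1 and -0.15 without E7.5 replicate 2. In each library Slc25a5 can be set against Slc25a4 directly, free of scaling: the ratio of their values was 1.23 and 1.48 at E7.5, then 0.987 and 0.983 at E8.5. These values are not divided by exon length. Per kb of exon, Slc25a5 still held 58.5% and 58.4% of the adenine nucleotide carriers at E8.5. The summed value of 6 cardiac markers was 21.4 and 19.6 at E7.5, then 5.93 and 6.27 at E8.5. Of the 4 tested, 2 fell (50%, against 26.4% of all genes), Myl7 and Actc1, and none rose. Their part in the change of Slc25a4 was not tested.

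Slc25a31, the third adenine nucleotide carrier, is known in the mouse as the form of male germ cells. It was near the limit of detection, with values of 1.41 and 1.32 at E7.5 (51 reads over both libraries) and 0.682 and 0.522 at E8.5 (23 reads), and had a share of at most 0.19% of the 3 genes. The log2 fold change was -0.56 (standard error 0.18, adjusted p = 0.0152), and -1.16 with edgeR on the reads (adjusted p = 0.0165). It reached the minimum value through its E7.5 libraries alone, so a difference was favoured by the filter. The call was lost without E7.5 replicate 1 (-0.54, adjusted p = 0.0544), without E8.5 replicate 2 (-0.49, adjusted p = 0.0906) and with DESeq2 (-1.17, adjusted p = 0.148). Of 7 germ cell markers, whose summed value was 39.3 and 36.7 at E7.5, then 27.9 and 25.9 at E8.5, 5 were tested. Of these, 3 fell, Ddx4, Dnd1 and Tfap2c, and 1 rose, Prdm1 (80% called, against 52% of all genes). Their part in the change of Slc25a31 was not tested.

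The promoters of these genes are shown because Slc25a4 rose while its paralogs Slc25a5 and Slc25a31 and the phosphate carrier Slc25a3 fell. RefSeq windows of 300 bases on GRCm38.p6, 250 before the transcript start and 50 from it onward, were at hand for 36 of the 47 members, and each is written in the direction of the gene. Capitals mark matches on either strand to the letters of 7 motifs, namely the motif of NRF1, a regulator of nuclear genes for mitochondrial proteins, CCGGAAG for ETS factors, GGGCGG for the GC box, CCAAT for the CCAAT box, CACGTG for the E-box, TGACGTCA for the CRE and AAGATGGC for YY1. The motifs were chosen after the values were known.
Slc25a3 (chr10:91123918-91124217, minus strand): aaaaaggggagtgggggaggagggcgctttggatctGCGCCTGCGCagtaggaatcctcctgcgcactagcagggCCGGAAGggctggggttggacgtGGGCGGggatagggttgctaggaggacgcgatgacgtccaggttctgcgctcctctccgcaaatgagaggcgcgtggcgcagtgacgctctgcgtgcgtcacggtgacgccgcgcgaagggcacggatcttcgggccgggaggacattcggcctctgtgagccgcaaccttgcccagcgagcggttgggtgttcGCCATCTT
Slc25a4 (chr8:46211013-46211312, minus strand): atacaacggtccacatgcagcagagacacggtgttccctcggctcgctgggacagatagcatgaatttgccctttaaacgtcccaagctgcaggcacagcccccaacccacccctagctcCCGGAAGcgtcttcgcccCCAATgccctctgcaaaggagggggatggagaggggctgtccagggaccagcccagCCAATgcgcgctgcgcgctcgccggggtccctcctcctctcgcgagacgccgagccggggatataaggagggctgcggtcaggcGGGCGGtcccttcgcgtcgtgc
Slc25a5 (chrX:36795347-36795646, plus strand): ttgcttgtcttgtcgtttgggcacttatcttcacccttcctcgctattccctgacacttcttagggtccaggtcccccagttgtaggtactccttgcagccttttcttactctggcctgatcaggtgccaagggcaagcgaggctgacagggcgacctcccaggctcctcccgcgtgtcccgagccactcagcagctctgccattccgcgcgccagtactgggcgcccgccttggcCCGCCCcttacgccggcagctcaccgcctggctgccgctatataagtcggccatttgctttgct
Slc25a31 (chr3:40708621-40708920, plus strand): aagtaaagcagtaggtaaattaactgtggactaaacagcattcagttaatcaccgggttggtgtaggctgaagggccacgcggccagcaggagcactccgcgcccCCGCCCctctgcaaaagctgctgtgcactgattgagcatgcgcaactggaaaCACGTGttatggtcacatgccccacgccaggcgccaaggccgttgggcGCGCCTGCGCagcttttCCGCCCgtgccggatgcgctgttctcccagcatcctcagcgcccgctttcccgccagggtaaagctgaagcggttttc
Matches to NRF1 were found in 2 of the 36 genes, Slc25a3 and Slc25a31, both of which fell, but 4.6% of the 32851 windows of all genes hold one. The window of Slc25a5 has a GC box as its sole match, while that of Slc25a4 has an ETS match, a GC box and a pair of CCAAT boxes. Of the 46 carrier windows, 82.6% had a GC box, against 35.7% of all windows, and 47.8% had a CCAAT box, against 37.4%. Counted by gene, 30 of the 36 had a GC box and 19 a CCAAT box. Several genes have more than 1 window, which favours a match by gene. The windows of the carriers held a median of 15 CpG pairs, against 7 over all windows. E-boxes were in 7 genes, ETS matches in 7, the CRE in 2 and YY1 in 1. In that order they were in 17.4%, 15.2%, 4.35% and 2.17% of the carrier windows, against 7.15%, 8.86%, 1.79% and 2.75% of all windows. A window was at hand for 6 of the 9 genes that rose and for 10 of the 12 that fell. Slc25a37, Slc25a46 and Slc25a51, which rose, had none. With a window, 6 of 6 that rose had a GC box and 5 of 6 a CCAAT box. Among those that fell it was 9 and 4 of 10, and among those with no call 12 and 9 of 15. A match describes letters and not a bound site.

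Of the 4 carriers of aspartate and glutamate, 3 were tested: 2 fell (66.7%, against 26.4% of all genes) and 1 had no call. Slc25a12 and Slc25a13 encode the calcium-regulated aspartate-glutamate carriers, known as aralar and citrin, which drive the malate-aspartate shuttle that moves reducing power from cytosolic NADH into mitochondria. Slc25a12 on chromosome 2 (71271063 to 71367749) had values of 7.92 and 8.22 at E7.5, then 3.04 and 3.34 at E8.5. This was the largest fall of the family, at a log2 fold change of -1.11 with limma (standard error 0.15, adjusted p = 2.29e-05), or -1.33 with edgeR on the reads. Slc25a13, at 124 and 121 at E7.5, then 117 and 108 at E8.5, did not pass the test, with a log2 fold change of -0.12 (95% interval -0.26 to 0.014). Slc25a13 was the prevailing form throughout, and its value divided by that of Slc25a12 was 15.7 and 14.8 at E7.5, then 38.5 and 32.3 at E8.5. The ratio did not overlap between the stages. Windows of both genes are shown since the pair parted between the stages, with the same letters in capitals.
Slc25a12 (chr2:71367706-71368005, minus strand): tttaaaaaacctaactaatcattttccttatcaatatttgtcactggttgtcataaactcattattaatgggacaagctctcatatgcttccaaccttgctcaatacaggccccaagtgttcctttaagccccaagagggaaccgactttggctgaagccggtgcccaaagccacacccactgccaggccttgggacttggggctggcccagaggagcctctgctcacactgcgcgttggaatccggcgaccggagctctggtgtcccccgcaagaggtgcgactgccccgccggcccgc
Slc25a13 (chr6:6217124-6217423, minus strand): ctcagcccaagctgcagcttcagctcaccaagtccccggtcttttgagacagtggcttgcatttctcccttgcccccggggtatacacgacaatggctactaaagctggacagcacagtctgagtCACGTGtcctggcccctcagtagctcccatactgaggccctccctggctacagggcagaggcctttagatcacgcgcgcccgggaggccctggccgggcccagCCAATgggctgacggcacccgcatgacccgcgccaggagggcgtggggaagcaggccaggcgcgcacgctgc
The window of Slc25a12 has no match to any of the 7 motifs, and that of Slc25a13 has an E-box and a CCAAT box.

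Slc25a22 encodes a carrier of glutamate with a proton. It had values of 48.6 and 53.3 at E7.5, then 35.0 and 30.9 at E8.5, without overlap, and fell by 0.61 in log2 units (standard error 0.089, adjusted p = 3.89e-05). Slc25a18, its paralog, had 9 reads in the E7.5 libraries together, 19 in the E8.5 libraries, and was not tested. The other enzymes of the cytosolic NADH shuttles were fixed as a list of 7 genes, of which 6 were tested. Of these 2 fell (33.3%, against 26.4% of all genes), Got1 by 0.67 and Got2 by 0.24 on the log2 scale. They encode the cytosolic and the mitochondrial aspartate aminotransferase, which make and use the aspartate that Slc25a12 and Slc25a13 carry. The malate dehydrogenases Mdh1 and Mdh2 had log2 fold changes of -0.075 and -0.12 and did not pass (adjusted p = 0.282 and 0.0727).

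The carriers of di- and tricarboxylates showed 1 fall among 4 tested (25%, against 26.4% of all genes). Slc25a10, which exchanges malate or succinate for phosphate, had values of 39.2 and 37.2 at E7.5, then 26.6 and 29.4 at E8.5. It fell by 0.44 in log2 units (standard error 0.090, adjusted p = 8.9e-04). Slc25a1, the citrate carrier that feeds cytosolic acetyl-CoA for lipid synthesis, had values of 54.8 and 57.6 at E7.5, then 58.0 and 54.6 at E8.5, and its stages overlapped. Its log2 fold change was 0.0021, with a 95% interval of -0.16 to 0.16. Slc25a11, which exchanges oxoglutarate for malate in the same shuttle as aralar, had values of 108 and 104, then 97.8 and 99.0, and did not pass (-0.11, 95% interval -0.24 to 0.027). Part of its exons overlaps Rnf167 on the other strand. Slc25a21, a carrier of oxodicarboxylates, was low, with a value of -0.27 on the same scale (adjusted p = 0.237).

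The iron carriers moved in opposite directions. Slc25a37 and Slc25a28 encode mitoferrin-1 and mitoferrin-2, which bring iron to the matrix for heme and iron-sulfur clusters, and the former is known as the form of erythroid cells. Slc25a37 on chromosome 14 (69241848 to 69285112) had values of 11.1 and 9.69 at E7.5, then 18.7 and 19.0 at E8.5. It had the largest rise of the family, by 0.80 in log2 units (standard error 0.12, adjusted p = 5.35e-05). Slc25a28 on chromosome 19 (43663801 to 43674881) had values of 4.27 and 4.82 at E7.5, then 2.57 and 2.71 at E8.5 and fell by 0.60 in log2 units (standard error 0.16, adjusted p = 0.00585). Its call was lost with DESeq2 (-0.77, adjusted p = 0.0581) and with no filter on low values (adjusted p = 0.0586). Neither gene overlapped between the stages. Slc25a37 took 72.2% and 66.8% of the value of the pair at E7.5, then 87.9% and 87.5% at E8.5, and its value divided by that of Slc25a28 went from 2.59 and 2.01 to 7.27 and 6.98. Per kb of exon, the share of Slc25a37 was 61.7% and 55.6% at E7.5, then 81.9% and 81.3% at E8.5. Erythroid markers rose with Slc25a37, as given above, and their part was not tested. At E7.5 Hba-x, Hbb-y and Slc4a1 had no reads, while Alas2 had 104, Gata1 21, Klf1 13 and Hbb-bh1 10. A predicted gene, Gm16867, shares a whole transcript of Slc25a37 at an identity of at least 97% and is listed at 0 in every library, so reads could have been split or left out between these copies.

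Heme and iron-sulfur genes moved both ways. Of 15 tested, 4 rose and 4 fell (53.3%, near the share of all genes), with a median log2 fold change of -0.065. Alas2, the erythroid enzyme of the first step of heme synthesis and also among the erythroid markers, rose by 0.88, and Alad, the enzyme of the next step, by 0.42. Abcb10, a transporter that partners with mitoferrin-1 in erythroid cells, fell by 0.49, and Nfs1, the cysteine desulfurase of iron-sulfur synthesis, by 0.34. Slc25a38, the carrier that brings in glycine for heme, had values of 29.7 and 31.5 at E7.5, then 28.7 and 25.5 at E8.5 and did not pass (-0.17, 95% interval -0.37 to 0.034). Slc25a39 and Slc25a40 are carriers of glutathione, the main thiol that protects mitochondria from oxidation. Slc25a39 had values of 174 and 167 at E7.5, then 128 and 127 at E8.5 and fell by 0.42 in log2 units (standard error 0.060, adjusted p = 3.68e-05). Slc25a40, its paralog, had values between 7.87 and 13.5 with overlap of the stages, and a log2 fold change of 0.34 (adjusted p = 0.0864). It passed without E8.5 replicate 2 (0.55, adjusted p = 0.0236).

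**Figure D3:**
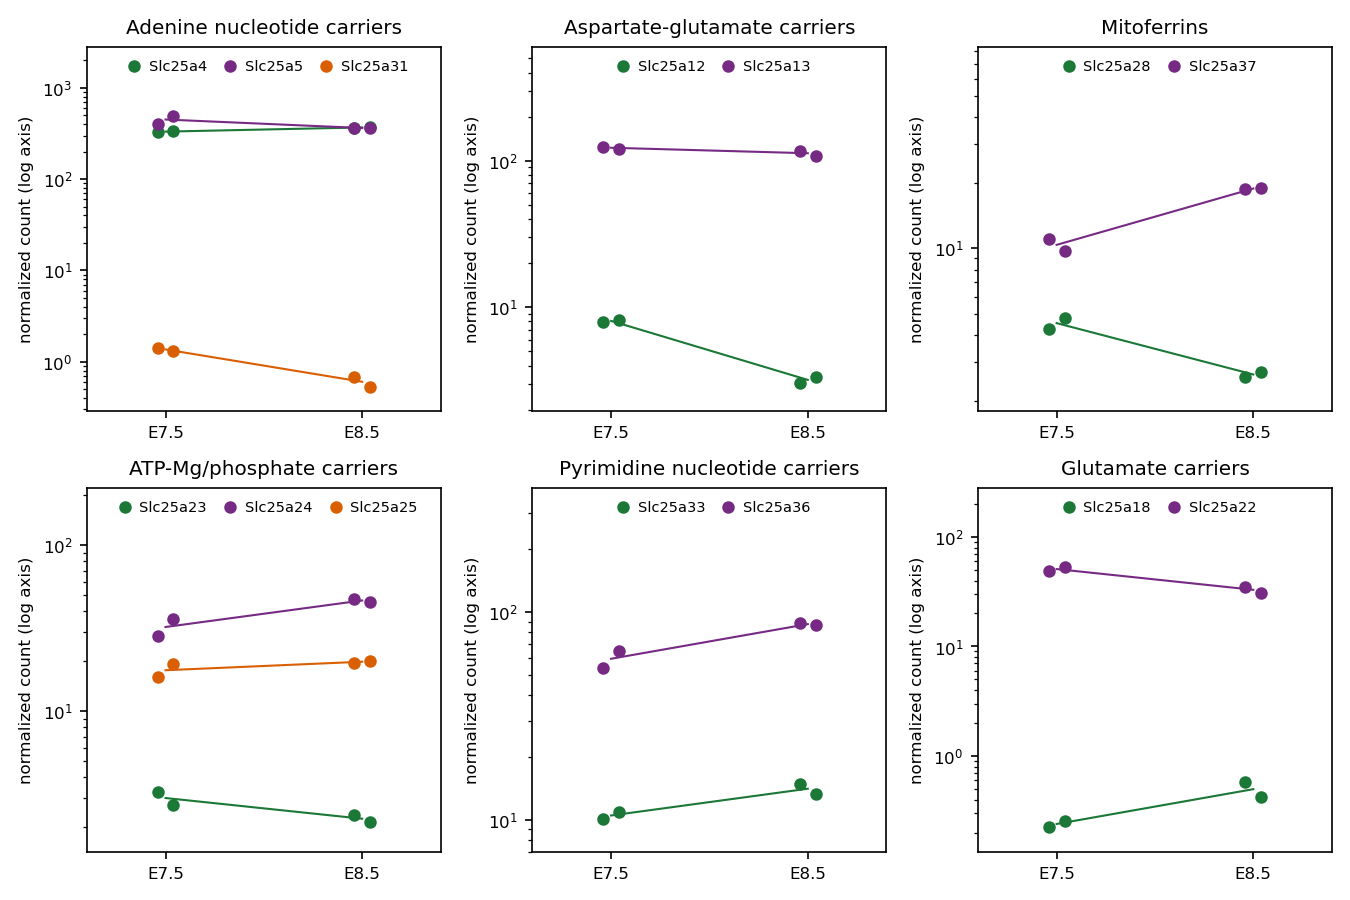
Normalized counts (log axis) of 14 carriers in 6 paralog sets at E7.5 and E8.5, with 1 point per library and lines between the stage means. Slc25a37 and Slc25a28 diverge, and Slc25a12 drops while Slc25a13 stays near its level. Slc25a4 and Slc25a5 meet at E8.5 in these counts, which are not divided by exon length.

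Of the 8 carriers of cofactors and nucleotides, all tested, 4 rose and 2 fell, against 25.6% and 26.4% of all genes, and their summed value was 236 and 251 at E7.5, then 291 and 300.1 at E8.5. Slc25a36 and Slc25a33 carry pyrimidine nucleotides, the building blocks of mitochondrial DNA and RNA. Slc25a36 had values of 54.0 and 65.2 at E7.5, then 88.5 and 86.4 at E8.5 and rose by 0.55 (standard error 0.084, adjusted p = 6.11e-05). Slc25a33 had values of 10.1 and 10.9 at E7.5, then 15.0 and 13.3 at E8.5 and rose by 0.39 (standard error 0.13, adjusted p = 0.0165). Both genes of the pair moved up together and their stages did not overlap. Slc25a33 lost its call without E7.5 replicate 1 (0.34, adjusted p = 0.0914), without E8.5 replicate 1 (0.32, adjusted p = 0.139) and with DESeq2 (0.44, adjusted p = 0.0559). Slc25a51, the carrier of NAD+, had values of 56.7 and 59.0 at E7.5, then 71.7 and 73.4 at E8.5, and rose by 0.32 (standard error 0.071, adjusted p = 0.00137).

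Slc25a17, the carrier of the peroxisomal membrane for cofactors such as CoA, had values of 65.2 and 64.9 at E7.5, then 78.1 and 76.5 at E8.5. It rose by 0.25 (standard error 0.068, adjusted p = 0.00709), with the call lost without E8.5 replicate 1 (0.23, adjusted p = 0.0866) or replicate 2 (0.26, adjusted p = 0.0554). In the other direction, Slc25a42, the mitochondrial carrier of CoA, had values of 2.64 and 3.25 at E7.5, then 1.05 and 1.46 at E8.5. It fell by 0.81 in log2 units (standard error 0.18, adjusted p = 0.0016), or by 1.22 with edgeR on the reads, of which there were 111 at E7.5, then 48 at E8.5. Slc25a16 was at 11.1 and 12.1 at E7.5 and at 6.66 and 11.4 at E8.5. Its log2 fold change of -0.37 did not pass (adjusted p = 0.102), but did without E8.5 replicate 2 (-0.72, adjusted p = 0.00341). Slc25a32, the folate carrier, overlapped between the stages and did not pass (0.061, 95% interval -0.18 to 0.30). Mitochondrial folate enzymes, a list of 6 of which 5 were tested, had 2 rises, Mthfd2l by 0.50 and Mthfd2 by 0.38, and 1 fall, Mthfd1l by 0.37 on the log2 scale. Of the 5 tested, 60% were called, against 52% of all genes.

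**Figure D4:**
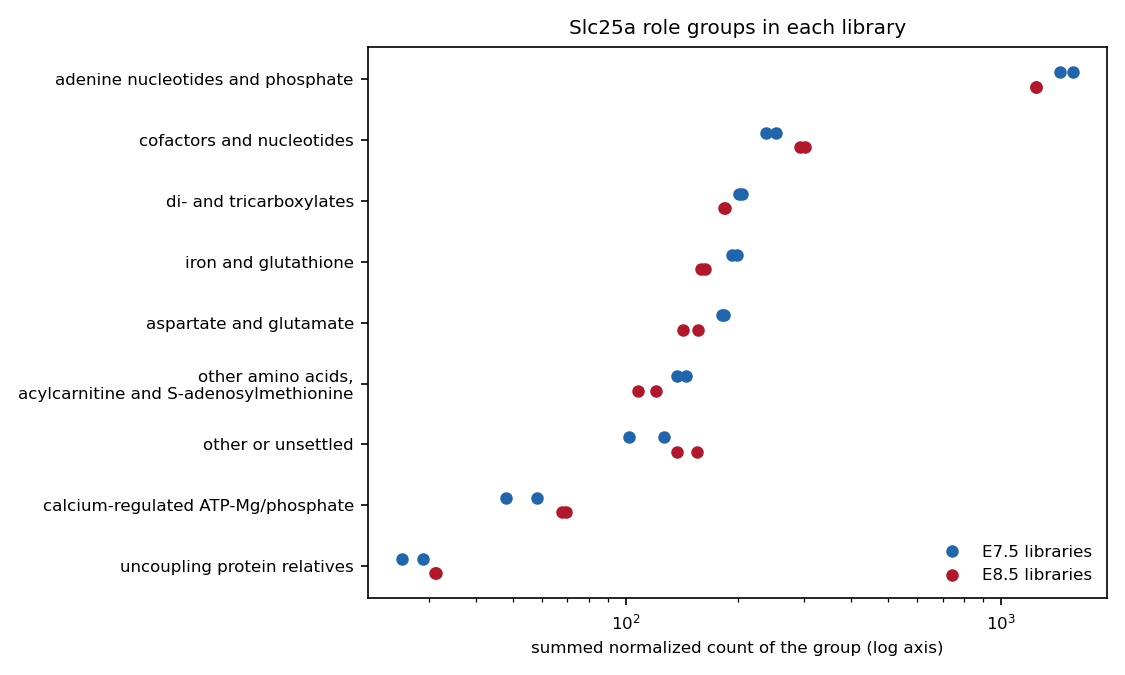
Summed normalized count (log axis) of each role group of carriers, with 1 point per library, blue for E7.5 and red for E8.5. The carriers of adenine nucleotides and phosphate are the highest group and lower at E8.5, while cofactor and nucleotide carriers go from 236 and 251 to 291 and 300.1.

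The ATP-Mg/phosphate carriers set the adenine nucleotide pool of the matrix, and most of them respond to calcium. Of the 4 members, Slc25a24 rose, Slc25a23 and Slc25a25 did not pass, and Slc25a41 was not tested. Slc25a24 on chromosome 3 (109123149 to 109168457) had values of 28.5 and 35.8 at E7.5, then 47.3 and 45.6 at E8.5. The log2 fold change was 0.53 (standard error 0.10, adjusted p = 4.59e-04), and it passed in every alternative, with 0.37 without E7.5 replicate 1. Slc25a25 had values of 16.1 and 19.2, then 19.6 and 20.1 (0.17, 95% interval -0.075 to 0.41). Slc25a23 was at 3.26 and 2.74, then 2.36 and 2.14 (-0.30, 95% interval -0.66 to 0.065). Slc25a24 thus took 59.4% and 61.8% of the value of the set at E7.5, then 68.2% and 67.2% at E8.5. Per kb of exon, its share was 75.1% and 76.8%, then 82.2% and 81.8%. Slc25a41 had 7 reads at E7.5, then 1 at E8.5.

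Among carriers of other amino acids, acylcarnitine and S-adenosylmethionine, 2 of 6 tested fell (33.3%, against 26.4% of all genes) and none rose. Slc25a44, a carrier of branched-chain amino acids, had values of 35.3 and 33.5 at E7.5, then 25.2 and 24.9 at E8.5 and fell by 0.44 in log2 units (standard error 0.090, adjusted p = 7.53e-04). Slc25a15, the ornithine carrier that links the matrix to the urea cycle and polyamines, had values of 42.4 and 49.6 at E7.5, then 36.6 and 30.9 at E8.5. It fell by 0.44 (standard error 0.10, adjusted p = 0.0019), and its call was lost without E8.5 replicate 2 (-0.32, adjusted p = 0.05001). Its paralog Slc25a2 had 2 reads at E7.5, then 7 at E8.5. Slc25a20, the carnitine-acylcarnitine carrier of fatty acid oxidation, had values of 16.2 and 17.8, then 16.7 and 15.5, with overlap of the stages (-0.071, 95% interval -0.31 to 0.17). Of a list of 6 carnitine acyltransferases, not all of them its partners in mitochondria, 4 were tested. Among those, 2 fell (50%, against 26.4% of all genes), and none rose. Cpt2 fell by 0.62 and Crot by 0.58 on the log2 scale. Slc25a26, the carrier of S-adenosylmethionine for mitochondrial methylation, had a log2 fold change of -0.039 (95% interval -0.33 to 0.25), and Slc25a29, a carrier of basic amino acids, one of -0.29 (adjusted p = 0.171).

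The relatives of the uncoupling proteins did not pass the test. Slc25a27, Slc25a30 and Slc25a14 had log2 fold changes of 0.32, 0.22 and 0.0090, with adjusted p-values of 0.0724, 0.141 and 0.964. Slc25a27 and Slc25a30 had both E8.5 values above both E7.5 values. Among members with another or an unsettled role, 2 of 4 tested rose (50%, against 25.6% of all genes). Slc25a46 lies in the outer membrane and takes part in mitochondrial shape. Its values were 89.0 and 114 at E7.5, then 138 and 122 at E8.5, and it rose by 0.36 (standard error 0.095, adjusted p = 0.00485). Without E7.5 replicate 1 it was 0.19 (adjusted p = 0.0717), without E8.5 replicate 1 it was 0.27 (adjusted p = 0.095), and DESeq2 gave 0.37 (adjusted p = 0.115). Slc25a53 had values of 7.03 and 7.96 at E7.5, then 11.3 and 9.82 at E8.5 and rose by 0.45 (standard error 0.14, adjusted p = 0.0156). It lost its call without E7.5 replicate 1 (0.37, adjusted p = 0.108), without E8.5 replicate 1 (0.35, adjusted p = 0.133) and with DESeq2 (0.51, adjusted p = 0.0573). Slc25a43 and Slc25a47 did not pass (-0.26 and 0.21).

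The 8 carriers that were not tested had at most 33 reads in a stage. Over the E7.5 and then the E8.5 libraries, Slc25a35 had 21 and 33 reads, Slc25a45 had 27 and 12, Slc25a18 had 9 and 19, Slc25a48 had 8 and 7, and Slc25a34 had 2 and 3. Slc25a41 and Slc25a2 are given above. Slc25a54 had 0 reads in all 4 libraries, which allows a value of up to 0.080 at E7.5, then 0.0785 at E8.5, taken as 3 reads over both libraries of a stage and covering counting error only.

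The import route of the carriers showed a similar mix. Of 13 tested genes of the outer membrane pore and the TIM22 pathway, which inserts carriers into the inner membrane, 2 rose and 4 fell. The share called was 46.2%, against 52% of all genes, and the median log2 fold change was -0.099. Timm8b and Timm13, small chaperones of the intermembrane space, fell by 0.73 and 0.48 on the log2 scale, and Tomm40, the pore of the outer membrane, by 0.24. Agk and Timm29, subunits of the TIM22 complex, rose by 0.39 and 0.23. Their own pore, Timm22, did not pass (-0.14, adjusted p = 0.128). Of other membrane carriers of mitochondria, 13 were tested, of which 6 fell and 1 rose (53.8% called, against 52% of all genes, of which 26.4% fell and 25.6% rose). The uncoupling protein Ucp2 belongs to the same carrier family, but its symbol lies outside the rule, so the totals above leave it out. Its value went from 34.7 ± 0.0478 to 17.0 ± 0.716 (SD, n = 2 libraries each) and fell by 0.98 on the log2 scale. Sfxn1, a serine carrier, fell by 0.38, and Mtch1, a distant relative in the outer membrane, rose by 0.31.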

How the data were processed

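Posterior epiblast RNA of 2 pools per stage was sequenced as single-end reads by the authors and aligned to mm10 with STAR. The deposited values are a signal per gene and library, reads divided by a size factor; the paper's methods name DESeq2 and the public processing notes edgeR, and the counting program is not given in the sources used here. Dividing a library's values by its smallest step gave whole reads for 100% of values within 0.0001 reads, with 18488218 to 19493342 reads per library. SMART-Seq2 does not keep the strand, so reads of overlapping genes cannot be told apart; 14 of 47 carriers overlap another gene in exons, by at most 31.3% of their exonic length (Slc25a35).

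Genes that reached a value of 1 in 2 or more libraries (13903) were compared with limma 3.58.1 in R 4.3.3 (lmFit, eBayes with a mean-variance trend; 2 residual and 12.8 prior degrees of freedom) on log2(value + 1), with Benjamini-Hochberg adjustment over all of them. No paired term was used. Alternatives were pseudocounts of 0.1 and 4, no filter or a minimum of 5, edgeR 4.0.16 and DESeq2 1.42.0 on the recovered reads, upper quartile scaling, a replicate block, and leaving out each library with the same genes kept. On simulated data of these sizes (E8.5 against E7.5, 13703 genes), limma recovered 90 of 96 genes changed by a log2 fold of 1 and 96 of 96 changed by 2, with 8 false calls. The simulation gave every gene the same dispersion, 0.0031, and changed far fewer genes than were called here. Its rates therefore do not give the error of the calls above. On the real data edgeR called 7172 genes and limma 7233 at an adjusted p under 0.05.

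1 member and 1 marker are counted in the totals but not reported here. Positions and exonic lengths are from GENCODE vM21 on GRCm38, where 53311 of 53397 identifiers and all 47 carriers were found. An exonic length is the union of the exons of all annotated transcripts of a gene. Near-identical copies were sought with BLAST at 97% identity over at least 75 bases. Values in each library are given for the 8 members that rose most and the 8 that fell most, the 6 most abundant per kb and their paralogs, and for others where a call or an overlap is discussed; genes outside the family come from lists of partner pathways and markers. The members and lists were chosen with earlier results of these data known, and the promoter motifs after the values were seen.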

Additional observations from a re-analysis of the deposited data

How the results depend on the processing

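No called carrier changed direction under any of the 12 alternatives. Of the 21 called, 10 passed in every alternative that gave a value (Slc25a3, Slc25a10, Slc25a12, Slc25a22, Slc25a24, Slc25a36, Slc25a37, Slc25a39, Slc25a44 and Slc25a51) and 11 missed the threshold in at least 1. With no filter on low values, 5 carriers rose and 6 fell, 11 of the 21 calls remained, and the median log2 fold change over the 46 then tested was -0.064. With a minimum value of 5 the numbers were 9 and 9 among 31 tested, and the median was 0.0021, with Slc25a21, Slc25a23, Slc25a28, Slc25a29, Slc25a31, Slc25a42, Slc25a43 and Slc25a47 no longer tested. DESeq2 gave 6 and 9, and edgeR gave 9 and 12, with all 21 calls kept. Upper quartile scaling kept 20 of the 21, without Slc25a4 (0.13, adjusted p = 0.0648). Leaving out 1 library gave 4 to 9 that rose, 10 to 11 that fell and medians from -0.13 to -0.080, with the lowest number of rises, 4, without E8.5 replicate 1; the lone library of a stage is then assumed to vary like the other stage. With no filter, 30205 genes were tested, and Slc25a4, Slc25a5, Slc25a15, Slc25a28, Slc25a31, Slc25a33, Slc25a42, Slc25a46 and Slc25a53 were among those that missed the threshold.

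With the replicate number as a block, 9 carriers rose and 13 fell, at a median of -0.11, the addition being Slc25a16 (-0.37, adjusted p = 0.0437). Nothing in the labels ties equal numbers to each other, and the deviations of same-numbered libraries correlated at -0.0025 across genes, which are not independent replicates. Depth limits the carriers with few reads: those under a value of 1 were not tested.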

Other observations

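Several carriers lie next to each other in the genome. Slc25a29 and Slc25a47 on chromosome 12 are divergent genes separated by 162 bases, with log2 fold changes of -0.29 and 0.21, neither past the threshold (adjusted p = 0.171 and 0.297). Slc25a54 and Slc25a24 on chromosome 3 lie 6461 bases apart on the same strand; the first had 0 reads in every library, while the second rose by 0.53. Slc25a43 and Slc25a5 on chromosome X lie 18448 bases apart on the same strand, with means at E7.5 of 1.33 and 451. Slc25a41 and Slc25a23 on chromosome 17 lie 2056 bases apart and were both low, with 1 and 86 reads at E8.5.

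The pseudogene Slc25a5-ps, which the rule leaves out, had 7 reads at E7.5, then 1 at E8.5. The predicted gene Gm5560, which shares 71.5% of a transcript of Slc25a5, had 61 and 48, against 17000 and 13891 for Slc25a5 itself.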
